A study of Mus musculus with 36 samples.

Results

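The 7 genes Tek, Esam, Procr, Fgd5, Col4a1, Col4a2 and Sparc are best known from the cells that line blood vessels, and they were chosen by their array levels, which were high in haematopoietic stem cells. They were measured by the 10 probe sets annotated to exactly 1 of them, out of 34945 probe sets with a single gene, and make up 7 of the 18193 genes analysed. Because their high level in stem cells was the reason for grouping them, that level is described here without a test. Tests were run between the other populations, and of whether a difference was the same in both deposit sets. For LSK against HSC the test between sets uses the levels that chose the genes, so nothing is read from their count in it. None of the 7 genes encodes a protein named in the sorting gates.

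RNA of stem and progenitor cells sorted from C57BL6 mice was extracted with Trizol, amplified, labelled and hybridised to 36 one-colour arrays. Haematopoietic stem cells, sorted as LSKFlt3-CD48-CD150+ and called HSC here, were on 6 arrays. LSKFlt3hi IL7R+ cells, labelled as thymic seeding progenitors and called LSK here, were on 6, and 4 arrays held CLP, the common lymphoid progenitor, which the labels also propose to seed the thymus. The thymocyte stages were early thymic progenitors with high Flt3 (ETPFlt3hi, called ETP) on 6 arrays, adult ETP by title on 2, DN2Kit+ cells (DN2) on 3 and DN3 cells on 6. B cell progenitors (pro-B) were on 3. All arrays carry the same age label of 1 week, those titled adult included, a sex label naming males and females together, and no treatment or altered allele.

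The arrays fall into 2 deposit sets, told apart by their labels, whose array quantiles differ as if normalized apart. Set 1 has 15 arrays (HSC, LSK, ETP, DN2 and DN3, 3 each), labelled as bone marrow or thymus and as pools of several mice. Set 2 has 21 arrays: HSC, LSK, ETP, DN3 and pro-B with 3 each, CLP with 4 and adult ETP with 2. The title of 1 CLP array holds no number, and it is called CLP replicate 4 here. The median array value lay between 5.12 and 5.22 in the first set, against 5.84 to 5.95 in the second, so levels are set side by side only within a set. All levels are log2 values, on which a step of 1 is 2-fold. These are bulk samples, in which fewer cells that use a gene and less RNA of it per cell cannot be told apart. Nothing in the labels says whether the arrays of set 2 came from separate animals, so the p-values measure the spread between arrays.

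Blood stem cells arise in the embryo from a specialised endothelium, and the adult cells share several surface and matrix genes with the vessel lining. Tek encodes the receptor tyrosine kinase Tie2, which binds the angiopoietins and in mouse bone marrow is known for its part in stem cell quiescence. Procr encodes the endothelial receptor of protein C and Esam an adhesion protein of endothelial junctions, and both serve as surface markers of mouse stem cells. Fgd5 encodes an exchange factor that activates the small GTPase Cdc42, and reporters of it label mouse stem cells and endothelium. Col4a1 and Col4a2 encode the most widespread chains of type IV collagen, the meshwork of vascular basement membranes. Sparc encodes a secreted glycoprotein that binds collagen and is made by endothelium, stroma and platelets.

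Markers of HSC, DN2, DN3 and pro-B were high where the labels put them. B lineage genes were not confined to pro-B, with median differences from HSC of 2.87 in LSK and 2.23 in CLP. Of 4 measured B lineage genes and 3 genes listed for CLP and LSK, 0 were called in CLP against LSK. Of all genes, 0.33% were called there. Set means of the stem cell factors Mecom and Hlf in HSC were 10.30 and 9.41 in set 1 and 10.15 and 9.60 in set 2, and Slamf1, which encodes the gate protein CD150, had 8.91 and 7.71. DN3 had the pre-T cell receptor gene Ptcra at 11.59 and 10.36, DN2 had Bcl11b at 11.70, and pro-B had Pax5 at 10.76. HSC replicate 5 stood apart from the other HSC arrays of set 2. Its Cd48, a gene whose protein the HSC gate excludes, was at 7.47, against 4.88 and 5.23 on the other 2 HSC arrays of set 2 and 7.99 to 11.29 on the arrays of other populations in that set. Its mean over 11 granulocyte genes was 7.50, against 6.09 and 5.12 on the other HSC arrays of set 2. HSC replicates 2 and 4 had the stromal collagen gene Col1a1 at 11.21 and 11.77.

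The promoters of 6 of the 7 genes were found in RefSeq (GRCm38.p6), each as a window of 300 bases around an annotated start. Each ran from 250 before to 50 after it. For Tek, Procr, Fgd5 and Col4a1 that start lies inside the annotated bounds of the gene, not at their edge. Those of the collagen IV pair are shown because the genes lie head to head and their windows overlap. Capitals mark the 78 bases they share, which are read from opposite strands, and the starts used for the 2 windows are 21 bases apart. By the gene bounds Col4a1 begins at chr8:11312889 and Col4a2 at chr8:11312805, so the 2 genes overlap. The Col4a1 window is chr8:11312777-11313076 on the minus strand and the Col4a2 window chr8:11312555-11312854 on the plus strand.
Col4a1: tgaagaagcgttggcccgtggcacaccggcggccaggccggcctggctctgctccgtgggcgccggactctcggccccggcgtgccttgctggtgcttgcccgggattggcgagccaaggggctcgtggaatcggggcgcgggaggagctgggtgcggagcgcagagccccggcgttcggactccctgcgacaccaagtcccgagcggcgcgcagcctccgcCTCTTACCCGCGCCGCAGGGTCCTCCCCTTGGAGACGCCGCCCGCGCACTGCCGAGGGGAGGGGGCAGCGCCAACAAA
Col4a2: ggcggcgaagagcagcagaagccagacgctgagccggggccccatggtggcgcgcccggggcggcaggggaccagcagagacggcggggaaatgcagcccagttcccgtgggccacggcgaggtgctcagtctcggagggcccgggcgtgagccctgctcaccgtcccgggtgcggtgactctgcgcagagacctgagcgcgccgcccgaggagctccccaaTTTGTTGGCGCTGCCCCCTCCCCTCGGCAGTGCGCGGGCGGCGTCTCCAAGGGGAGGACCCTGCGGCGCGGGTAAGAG
The Tek window, chr4:94739039-94739338 on the plus strand, is shown for the gene with the largest fitted difference between LSK and HSC. Capitals mark the letters AGATAA, the core recognised by GATA factors, beginning 36 bases after the start used for the window. The bounds of Tek begin upstream of that start, at chr4:94739086.
Tek: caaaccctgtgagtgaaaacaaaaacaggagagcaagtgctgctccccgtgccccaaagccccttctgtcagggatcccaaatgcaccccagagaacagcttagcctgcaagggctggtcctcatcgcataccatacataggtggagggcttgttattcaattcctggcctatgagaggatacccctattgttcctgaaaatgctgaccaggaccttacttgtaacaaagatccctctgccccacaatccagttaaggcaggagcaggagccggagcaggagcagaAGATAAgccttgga

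Both collagen windows were rich in G and C, at 74.0% for Col4a1 and 73.7% for Col4a2, as was Fgd5 at 71.3%. Tek at 52.0%, Sparc at 55.3% and Procr at 58.3% were near the median of 52.7% over 32851 promoters. Short motifs were searched on both strands, and no hits within a window overlapped. AGATAA was found in 1 of the 6 windows, that of Tek, and in 11.18% of all promoters. GGGCGG, bound by Sp1, was found in Fgd5, Col4a1 and Col4a2 and in 35.66% of all promoters. It came 5 times in the Fgd5 window. The Col4a2 window held 3 copies and the Col4a1 window 1. That of Col4a1 is one of the 3, counted in both windows because it lies in the stretch they share, at chr8:11312812-11312817. AGGAAG, an ETS core found in 35.35% of promoters, was in Fgd5. CAGCTG, an E-box found in 16.3%, was in Procr and Sparc, and TGACTCA, an AP-1 site found in 5.2%, was in Procr. The other ETS core searched, CCGGAA, found in 14.9% of promoters, was in 0 of the 6 windows. No motif searched was present in more than 3 of the 6 windows.

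Tek, the angiopoietin receptor, had the largest fitted difference between LSK and HSC of the 7 genes. In set 1, Tek had log2 levels of 9.03, 9.57 and 8.89 in HSC, 4.76, 3.57 and 2.80 in LSK, 3.12, 3.07 and 3.28 in ETP, 2.63, 2.94 and 3.25 in DN2, and 2.82, 2.78 and 2.83 in DN3. The lowest HSC array lay 4.13 above the highest other array, LSK replicate 1. In set 2, Tek had 10.18, 10.46 and 9.72 in HSC, 3.32, 3.54 and 3.24 in LSK, 3.65, 3.50, 5.26 and 3.74 in CLP, 3.19, 3.30 and 3.37 in ETP, 3.63 and 3.61 in adult ETP, 3.39, 3.42 and 3.49 in DN3, and 3.83, 3.28 and 3.65 in pro-B. HSC again stood alone, 4.46 above CLP replicate 3, and the ranges of all neighbouring populations below HSC overlapped. The fitted LSK minus HSC difference was -6.11 ± 0.27 (SE), with -5.46 in set 1 and -6.76 in set 2. CLP minus HSC was -5.78 in the fit over both sets and -6.08 in set 2, which alone holds CLP. ETP minus HSC was -6.42 in the fit over both.

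Procr, the protein C receptor, was also far above the rest in HSC, with a very narrow spread among HSC arrays of a set. Set 1 values of Procr were 9.30, 9.21 and 9.23 in HSC, 5.20, 5.70 and 4.67 in LSK, 5.39, 5.005 and 5.37 in ETP, 4.07, 4.21 and 4.29 in DN2, and 4.32, 4.10 and 3.90 in DN3. Below HSC, LSK and ETP overlapped with each other, and every DN2 and DN3 array lay under every LSK and ETP array. Set 2 values of Procr were 10.63, 10.33 and 10.42 in HSC, 5.56, 5.29 and 5.42 in LSK, 5.61, 6.04, 7.73 and 5.73 in CLP, 5.60, 6.04 and 6.01 in ETP, 6.23 and 6.57 in adult ETP, 5.68, 6.35 and 5.56 in DN3, and 5.19, 5.23 and 5.85 in pro-B. CLP replicate 3 at 7.73 was the nearest to HSC, 2.60 under the lowest HSC array. Below HSC, each population of set 2 overlapped with the next in order. LSK minus HSC was -4.54 ± 0.27, CLP minus HSC -4.05 (-4.18 in set 2 alone) and ETP minus HSC -4.28.

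Esam, the junction adhesion protein, had HSC arrays well above those of the other populations. In set 1, Esam had 9.27, 9.88 and 9.41 in HSC, 5.13, 5.27 and 4.70 in LSK, 4.50, 5.39 and 5.35 in ETP, 5.24, 4.28 and 5.24 in DN2, and 4.68, 4.69 and 5.16 in DN3. In set 2, Esam had 10.45, 10.64 and 10.14 in HSC, 6.22, 6.16 and 6.24 in LSK, 5.997, 6.67, 6.90 and 6.34 in CLP, 6.28, 6.25 and 6.46 in ETP, 6.72 and 6.29 in adult ETP, 6.14, 6.50 and 6.05 in DN3, and 6.38, 5.91 and 5.94 in pro-B. The populations other than HSC overlapped with their neighbours in both sets, and their means spanned 4.84 to 5.08 in set 1 and 6.08 to 6.50 in set 2. LSK minus HSC was -4.34 ± 0.18, CLP minus HSC -4.07 (-3.93 in set 2 alone) and ETP minus HSC -4.26.

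Fgd5, the Cdc42 exchange factor, was high in HSC, with LSK next in order in set 1 and CLP next in set 2. Set 1 values of Fgd5 were 9.30, 8.83 and 8.94 in HSC, 4.20, 3.95 and 3.99 in LSK, 2.70, 3.10 and 3.22 in ETP, 3.12, 2.90 and 2.98 in DN2, and 3.08, 3.04 and 2.996 in DN3. All 3 LSK arrays lay above every ETP, DN2 and DN3 array. The mean was 3.04 ± 0.04 in DN3, the next in order, against 4.05 ± 0.13 in LSK (SD, n = 3 each). Set 2 values of Fgd5 were 8.13, 8.65 and 8.64 in HSC, 4.05, 3.80 and 3.82 in LSK, 4.20, 4.38, 5.49 and 5.22 in CLP, 3.76, 3.45 and 3.91 in ETP, 3.90 and 3.67 in adult ETP, 3.70, 4.28 and 3.58 in DN3, and 4.85, 3.995 and 3.98 in pro-B. Here CLP came next after HSC with a mean of 4.82 ± 0.63 (SD, n = 4), and LSK overlapped with ETP and DN3. LSK minus HSC was -4.78 ± 0.23, CLP minus HSC -4.03 (-3.65 in set 2 alone) and ETP minus HSC -5.39.

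Col4a1 and Col4a2, the paired chains of type IV collagen, were both high in every HSC array. In set 1, Col4a1 had 9.48, 10.09 and 9.99 in HSC, 5.39, 5.83 and 4.09 in LSK, 4.48, 4.26 and 4.11 in ETP, 4.33, 4.23 and 4.22 in DN2, and 4.42, 4.07 and 4.31 in DN3. In set 2, Col4a1 had 12.11, 11.99 and 11.46 in HSC, 6.53, 6.30 and 6.75 in LSK, 7.30, 6.88, 7.48 and 5.93 in CLP, 6.04, 6.06 and 6.18 in ETP, 6.44 and 5.99 in adult ETP, 6.07, 6.44 and 6.84 in DN3, and 5.49, 5.69 and 6.39 in pro-B. The lowest HSC array was 3.65 above the highest other array in set 1, LSK replicate 2, and 3.98 above it in set 2, CLP replicate 3. Set 1 values of Col4a2 were 8.90, 8.91 and 8.99 in HSC, 4.33, 4.19 and 3.39 in LSK, 2.77, 3.33 and 3.01 in ETP, 3.25, 3.35 and 3.20 in DN2, and 3.21, 2.87 and 3.35 in DN3. Set 2 values of Col4a2 were 8.61, 9.32 and 9.03 in HSC, 4.28, 4.42 and 4.29 in LSK, 4.94, 4.42, 5.52 and 5.03 in CLP, 4.38, 4.33 and 4.09 in ETP, 4.41 and 4.63 in adult ETP, 4.03, 4.53 and 4.11 in DN3, and 3.75, 4.44 and 4.04 in pro-B. The Col4a2 gap was 4.57 in set 1 and 3.10 in set 2, and as for Col4a1 the arrays nearest to HSC were LSK in set 1 and CLP in set 2. LSK minus HSC was -5.04 ± 0.24 for Col4a1 and -4.81 ± 0.20 for Col4a2, and ETP minus HSC -5.66 and -5.31. CLP minus HSC was -4.88 for Col4a1 (-4.96 in set 2 alone) and -4.32 for Col4a2 (-4.01 in set 2 alone).

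Sparc, the secreted collagen-binding protein, was the least uniform of the 7 genes. In set 1, Sparc had 9.92, 8.72 and 8.07 in HSC, 8.51, 6.02 and 5.97 in LSK, 5.62, 5.35 and 5.57 in ETP, 5.34, 5.34 and 4.69 in DN2, and 5.30, 5.45 and 5.47 in DN3. LSK replicate 1 at 8.51 lay above the lowest HSC array at 8.07, and this is the one place where the main probe set of any of the 7 genes overlapped between HSC and another population. In set 2, Sparc had 11.89, 12.23 and 10.30 in HSC, 5.81, 6.13 and 6.10 in LSK, 7.67, 6.31, 8.28 and 5.61 in CLP, 5.98, 5.80 and 5.64 in ETP, 6.01 and 5.96 in adult ETP, 5.64, 6.19 and 6.06 in DN3, and 5.89, 7.03 and 6.52 in pro-B. The 4 CLP arrays were spread from 5.61 to 8.28, while the 3 LSK arrays of this set lay between 5.81 and 6.13. LSK minus HSC was -2.07 in set 1 and -5.46 in set 2, and -3.76 ± 0.50 in the fit over both. The difference between the sets was -3.39 ± 0.82 and did not pass adjustment over all genes (limma, adjusted p = 0.0579). It passed without LSK replicate 2 (adjusted p = 0.0370), LSK replicate 3 (0.0347), HSC replicate 1 (0.0205) or HSC replicate 6 (0.00885), and was -2.55 without LSK replicate 1 (0.165). CLP minus HSC was -3.54 in the fit over both sets and -4.50 in set 2, which alone holds CLP. ETP minus HSC was -4.53 in the fit over both.

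**Figure D1:**
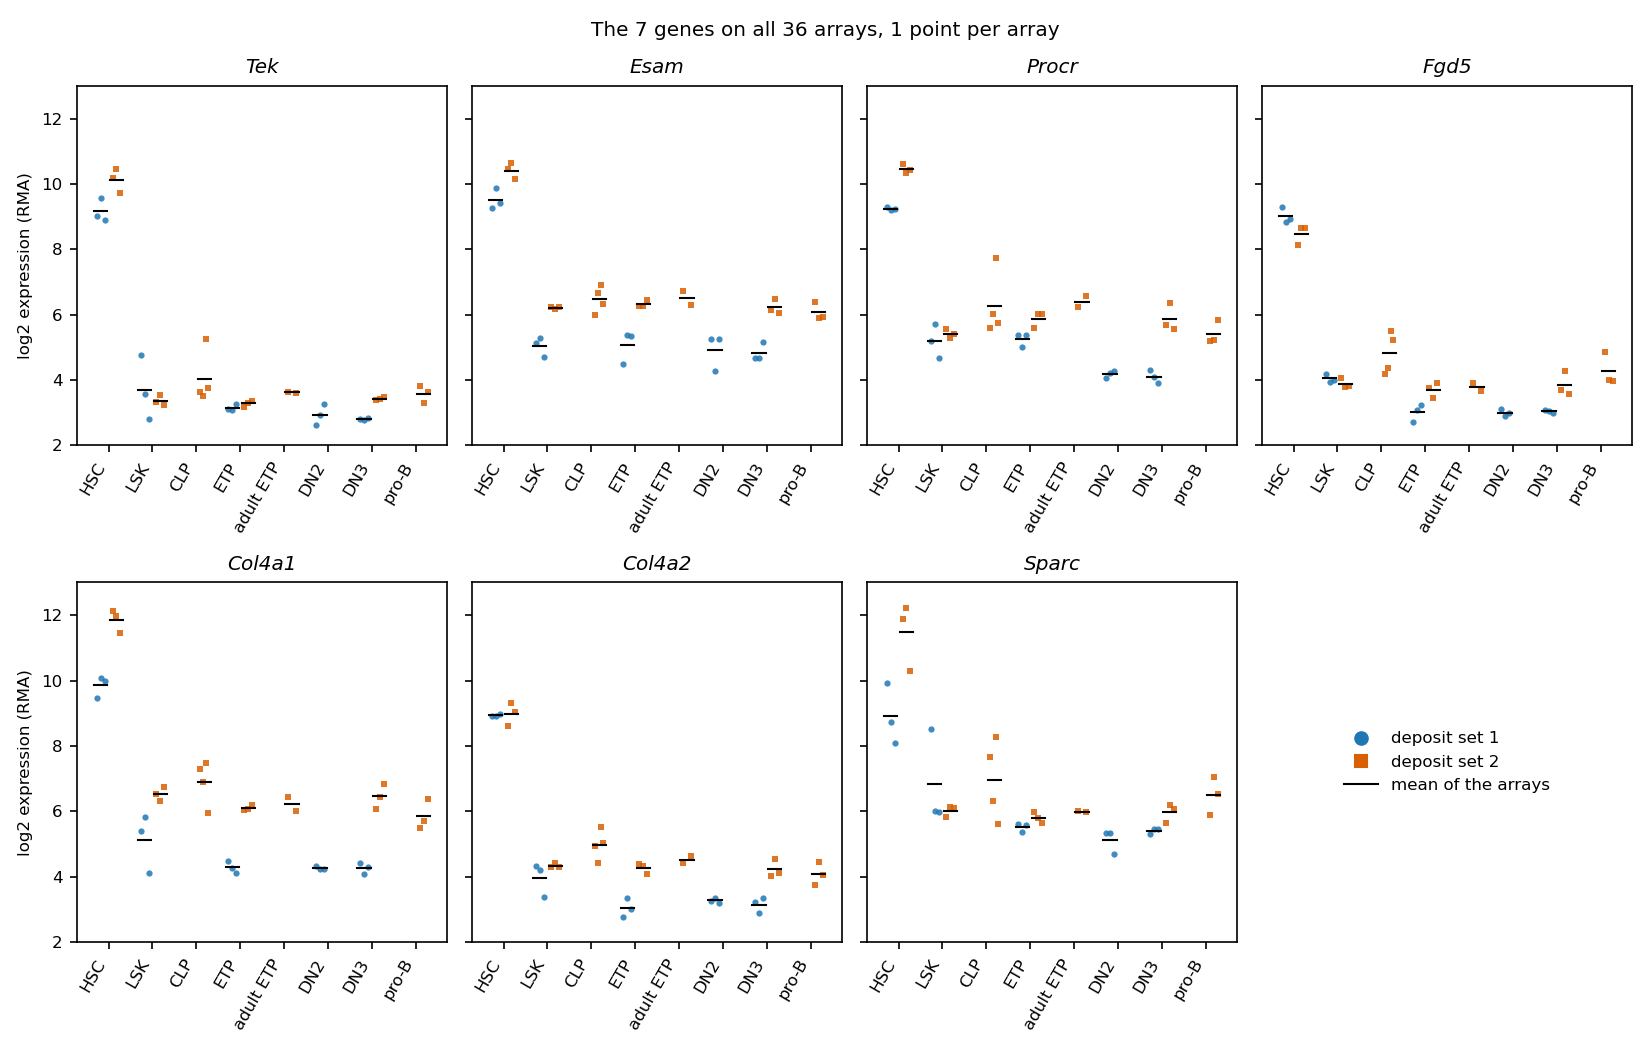
Log2 levels (vertical axis) of the 7 genes on all 36 arrays by population (horizontal axis), with circles for deposit set 1, squares for set 2 and bars for the mean of a population in a set. HSC arrays lie apart from all others for 6 of the 7 genes in set 1 and all 7 in set 2, and LSK replicate 1 reaches the HSC range for Sparc.

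All 7 genes were lower by at least 2-fold at an adjusted p under 0.05 in LSK, CLP and ETP against HSC, where 4.51%, 4.45% and 4.86% of all genes were called lower. Since HSC chose the genes, nothing is read from these counts. The HSC arrays lay above every other array for 6 of the 7 genes in set 1, as they did for 5.79% of all genes, and for 7 of 7 in set 2, as for 4.55% of all genes. Leaving out HSC replicate 5 moved LSK minus HSC to -5.97 for Tek, -4.32 for Esam, -4.54 for Procr, -4.82 for Fgd5, -4.99 for Col4a1, -4.81 for Col4a2 and -3.40 for Sparc. For Sparc, CLP minus HSC was then -3.09 and ETP minus HSC -4.17. All 7 genes were still called lower in LSK, CLP and ETP when any one array was left out, from which nothing is read either.

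Genes that define endothelial cells differed far more between LSK and HSC in set 2 than in set 1. Cdh5, which encodes the adhesion protein VE-cadherin, had 3.30, 3.23 and 2.99 in LSK, and 3.28, 3.04 and 3.76 in HSC in set 1, and 4.22, 4.51 and 4.35 in LSK, and 7.52, 9.42 and 7.43 in HSC in set 2. The VEGF receptor gene Kdr had 3.64, 3.70 and 3.58 in LSK, and 4.35, 3.90 and 4.13 in HSC in set 1, and 5.19, 5.61 and 5.49 in LSK, and 7.83, 10.11 and 7.09 in HSC in set 2. In set 1 the Cdh5 arrays of HSC and LSK overlapped and LSK minus HSC was -0.19, while Kdr was higher on every HSC array, with a difference of -0.49. In set 2 every HSC array lay above every LSK array for both, and the differences were -3.76 and -2.91. Other defining genes were the tight junction gene Cldn5, the gene of the fenestral diaphragm Plvap and the sinusoidal scavenger receptor gene Stab2. LSK minus HSC in set 1 was -0.36 for Cldn5, -0.15 for Plvap and -0.31 for Stab2, and in set 2 it was -2.44, -3.30 and -2.37.

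The difference between the sets passed over all genes for each of these 5 defining genes (limma interaction of population and set). It was -3.58 ± 0.44 for Cdh5 (adjusted p = 2.21e-05), -2.43 ± 0.55 for Kdr (adjusted p = 0.0329) and -2.09 ± 0.33 for Cldn5 (adjusted p = 0.000901). For Plvap it was -3.15 ± 0.51 (adjusted p = 0.000901) and for Stab2 -2.06 ± 0.40 (adjusted p = 0.00696). All 5 still passed without HSC replicate 5 (adjusted p = 0.0211 or lower), with Kdr then at -1.54. That of Kdr did not pass when LSK replicates 1 to 6, HSC replicate 2 or HSC replicate 3 were left out one at a time (adjusted p up to 0.105). Of all genes, 0.423% passed this test, and of the 7 genes 0 did. The HSC levels it uses chose the 7 genes, so nothing is read from their count. Of a list of 25 endothelial genes, 5 were lower by at least 1 in LSK than in HSC in set 1, where 4.75% of all genes were, and 17 in set 2, where 5.06% were. Medians of the list were -0.36 and -2.14, and 11 of the 25 passed the test of the difference.

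The mean of Cdh5 in HSC of set 1 was 3.36, and its means in the other populations of that set ran from 3.17 to 3.52. The mean over the 5 defining genes in set 1 was 3.96 to 4.31 on the arrays of other populations, against 4.78, 4.23 and 4.43 on the HSC arrays. In set 2 it was 4.85 to 5.25 on the arrays of other populations, against 7.58, 8.93 and 7.03 on the HSC arrays. Among the 3 HSC arrays of set 2, replicate 5 was the highest and replicate 6 the lowest for this mean, and so they were for Tek, Esam and Sparc. The other 4 genes had other orders. Fgd5 and Col4a2 were highest on replicate 5 and lowest on replicate 4, Col4a1 was highest on replicate 4 and lowest on replicate 6, and Procr was highest on replicate 4 and lowest on replicate 5. Other genes of the endothelial list were lower by at least 1 in LSK in both sets. Tie1, the partner receptor of Tek, had LSK minus HSC of -3.75 in set 1 and -3.09 in set 2, and Vwf, the clotting protein von Willebrand factor, -3.88 and -3.82. In the same order the differences were -2.38 and -1.30 for the guidance receptor gene Robo4, -1.48 and -3.27 for the sialomucin gene Emcn and -1.27 and -3.44 for the transcription factor gene Sox18. The part of endothelial RNA in the levels of the 7 genes was not tested in either set.

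In set 2, stromal genes differed between LSK and HSC less often than endothelial genes. Of 14 stromal genes, 2 were lower by at least 1 in LSK than in HSC in set 1, where 4.75% of all genes were. In set 2 there were 3, where 5.06% of all genes were, and the medians were 0.16 and -0.37. The test of the difference between sets was passed by 0 of the 14 and by 0.423% of all genes. It was imprecise for Col1a1 (-0.20 ± 1.64) and Col1a2 (-0.89 ± 1.40). In set 1 the mean over 5 defining stromal genes was 4.68 to 5.58 on LSK arrays, the highest being LSK replicate 1, against 4.64, 6.32 and 4.57 on HSC arrays. In set 2 it was 5.73 to 6.01 in LSK, against 7.78, 6.18 and 5.58 in HSC. Sparc, which stroma also makes, did not follow this order: it was highest on HSC replicate 1 in set 1 and on HSC replicate 5 in set 2. LSK replicate 1 was the highest array of its group for both. The part of stromal RNA in Sparc was not tested. Of 12 measured megakaryocyte and platelet genes, 3 were called lower in LSK than in HSC, where 4.51% of all genes were, among them Vwf at -3.85 and the platelet chemokine gene Pf4 at -2.33. The mean over the 12 genes was 3.70 to 3.97 on the other arrays of set 1, against 4.71 to 4.77 on HSC arrays, and in set 2 it was 4.64 to 5.05 on the other arrays, against 5.54 to 5.63 on HSC arrays. The mean over the 4 defining genes was also higher on every HSC array than on any other array of its set, at 4.42 to 4.87 in HSC of set 1 and 5.20 to 5.34 in HSC of set 2. The chemokine gene Ppbp was at 2.63 in LSK against 2.56 in HSC in set 1 and at 3.50 against 3.52 in set 2, and the platelet tubulin gene Tubb1 at 2.63 against 2.88 and at 3.49 against 3.76. The part of these cells in the levels of the 7 genes was not tested.

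**Figure D2:**
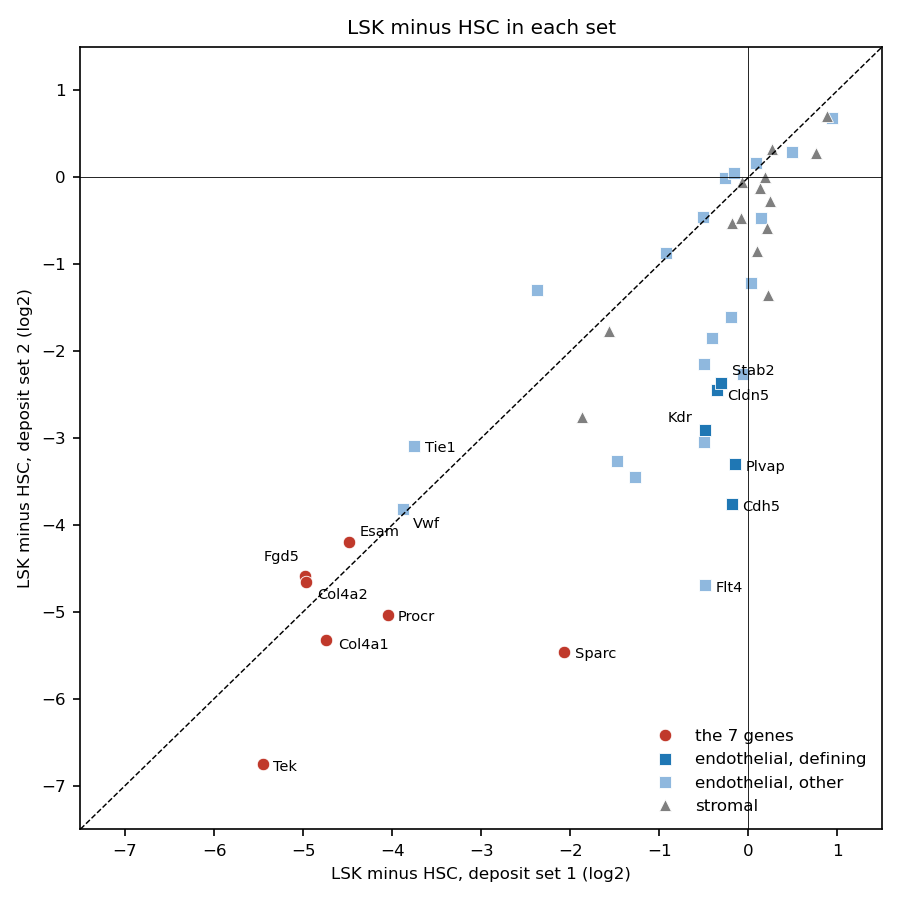
LSK minus HSC on the log2 scale in deposit set 1 (horizontal axis) and set 2 (vertical axis), 1 point per gene, with the dashed line marking equal differences. The 7 genes, chosen for a high level in HSC, lie far below 0 on both axes, Sparc at -2.07 and -5.46, while Cdh5, Kdr, Cldn5, Plvap and Stab2 lie near 0 in set 1 and between -2.37 and -3.76 in set 2.

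Among the populations past the stem cell stage few differences in the 7 genes passed. In the 9 comparisons between them, 2 differences were called at an adjusted p under 0.05 and at least 2-fold (limma), 1 for Fgd5 and 1 for Col4a1. In both the lower group was set against CLP, where replicate 3 had high values of all 7 genes.

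Fgd5 fell in ETP against CLP. In set 2, which holds CLP, Fgd5 was at 3.76, 3.45 and 3.91 in ETP against 4.20, 4.38, 5.49 and 5.22 in CLP, and the arrays did not overlap. The fitted difference was -1.36 ± 0.27 (adjusted p = 0.00154), and it was -1.11 in set 2 alone (adjusted p = 0.0497). It was the 1 gene called among the 7, where 1.39% of all genes were called and 0.566% called lower. Without CLP replicate 3 the difference was -1.14 (adjusted p = 0.0169). Col4a2 passed the p threshold in the same comparison in the fit over both sets but fell short of 2-fold, at -0.98 ± 0.24 (adjusted p = 0.0130). In set 2 alone Col4a2 did not pass, at -0.71 (adjusted p = 0.151). Its levels in set 2 were 4.38, 4.33 and 4.09 in ETP against 4.94, 4.42, 5.52 and 5.03 in CLP, so the ranges did not overlap. Without CLP replicate 3 it no longer passed, at -0.81 (adjusted p = 0.0839), and it was called without CLP replicate 2, at -1.17 (0.00472), or without ETP replicate 4, 5 or 6, at -1.09, -1.07 and -1.01.

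All 7 genes had negative ETP minus CLP differences, with a median of -0.78 against -0.02 over all genes. These were -0.65 for Tek (adjusted p = 0.392), -0.19 for Esam (0.801), -0.23 for Procr (0.844), -0.78 for Col4a1 (0.170) and -0.98 for Sparc (0.531). Of the 7, 4 had an unadjusted p under 0.05. No share of all genes is given for that threshold, so nothing is read from this count. The 95% interval for Sparc, -2.17 to 0.21, was the widest, and that for Esam, -0.62 to 0.25, the narrowest. Without CLP replicate 3 the Procr difference was 0.26 (adjusted p = 0.742), and without CLP replicate 4 that of Col4a1 was called, at -1.10 (0.0175).

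In pro-B against CLP, the step into the B lineage, Col4a1 fell and Col4a2 came close. Col4a1 had 5.49, 5.69 and 6.39 in pro-B against 7.30, 6.88, 7.48 and 5.93 in CLP, and the ranges overlapped, CLP replicate 4 lying within the pro-B range. The difference was -1.04 ± 0.32 (adjusted p = 0.0196), the 1 call among the 7 where 5.85% of all genes were called and 2.52% called lower. The call was lost without CLP replicate 1 (adjusted p = 0.0645), without CLP replicate 3 (0.0789), without pro-B replicate 1 (0.136) or without pro-B replicate 2 (0.0828). Tested as a row of its own, the second probe set of Col4a1 gave 0.20 ± 0.26 (adjusted p = 0.696). Col4a2 had 3.75, 4.44 and 4.04 in pro-B against 4.94, 4.42, 5.52 and 5.03 in CLP, a difference of -0.90 ± 0.27 (adjusted p = 0.0169) and under 2-fold, with the highest pro-B array just above the lowest CLP array. It passed 2-fold without CLP replicate 2, at -1.09 (0.00610), or pro-B replicate 2, at -1.09 (0.0144), and did not pass without CLP replicate 3 (0.0736) or pro-B replicate 1 (0.128). All 7 differences were negative, with a median of -0.55 against 0.04 over all genes, and Procr was at -0.85 (adjusted p = 0.102), called without CLP replicate 1 at -1.08 (0.0455).

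The remaining comparisons called 0 of the 7 genes. Counts at an unadjusted p under 0.05 are given here and below without a share of all genes, so nothing is read from them. In CLP against LSK 0 were called, where 0.33% of all genes were, with 2 of 7 at an unadjusted p under 0.05. All 7 differences were positive there, from 0.15 for Col4a1 to 0.75 for Fgd5 (adjusted p = 0.296). Without CLP replicate 3, 3 of the 7 were negative in the fit over both sets, which also uses the LSK arrays of set 1. In a fit of set 2, which alone holds CLP, the 7 differences ran from 0.27 for Esam to 0.95 for Sparc. That fit included CLP replicate 3. In ETP against LSK 0 were called, where 1.67% of all genes were, with 3 of 7 at an unadjusted p under 0.05. The largest differences there were -0.77 for Sparc (adjusted p = 0.665), -0.63 for Col4a1 (0.206), -0.61 for Fgd5 (0.190) and -0.50 for Col4a2 (0.264). For Fgd5, ETP minus LSK was -1.04 in a fit of set 1 alone (adjusted p = 0.00229, where 0.841% of genes were called lower) and -0.18 in set 2 (adjusted p = 0.9996). The difference between the sets, 0.86 ± 0.37, did not pass adjustment (adjusted p = 0.99997), where 0.033% of all genes did.

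Along the thymic stages 0 of the 7 were called in DN2 against ETP, DN3 against DN2 or DN3 against ETP, where 3.09%, 2.34% and 5.9% of all genes were called. At an unadjusted p under 0.05 there were 1, 0 and 1. Procr was the one with the largest difference. It was at -0.90 ± 0.34 in DN2 against ETP (adjusted p = 0.166) and -0.58 ± 0.27 in DN3 against ETP (adjusted p = 0.152). In a fit of set 1 alone, where the arrays did not overlap, these were -1.06 (adjusted p = 0.00935, where 1.37% of genes were called lower) and -1.15 (adjusted p = 0.00248, where 3.73% were). In set 2, DN3 minus ETP was -0.02 (adjusted p = 0.987), and the difference between the sets was 1.13 ± 0.47 (adjusted p = 0.850), a test that 0 genes passed. The other genes lay between -0.26, for Fgd5 in DN2 against ETP, and 0.35, for Fgd5 in DN3 against DN2, in the fit over both sets. In set 1, which alone holds DN2, the same differences of Fgd5 were -0.008 and 0.04.

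Adult ETP against ETP called 0 of the 7 genes, where 0.209% of all genes were called, and 0 of 7 had an unadjusted p under 0.05. The largest difference in the fit over both sets was 0.53 ± 0.29 for Col4a2 (adjusted p = 0.397). In set 2, which alone holds adult ETP, Col4a2 was at 0.25 and the largest was 0.52 for Procr (adjusted p = 0.652). DN3 against pro-B called 0 of 7, where 8.27% of all genes were called, with 1 at an unadjusted p under 0.05: Fgd5 at -0.73 ± 0.29 (adjusted p = 0.0691). Intervals were wide for Sparc, -1.47 to 1.48 in adult ETP against ETP, and narrow for Esam, -0.33 to 0.75.

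**Figure D3:**
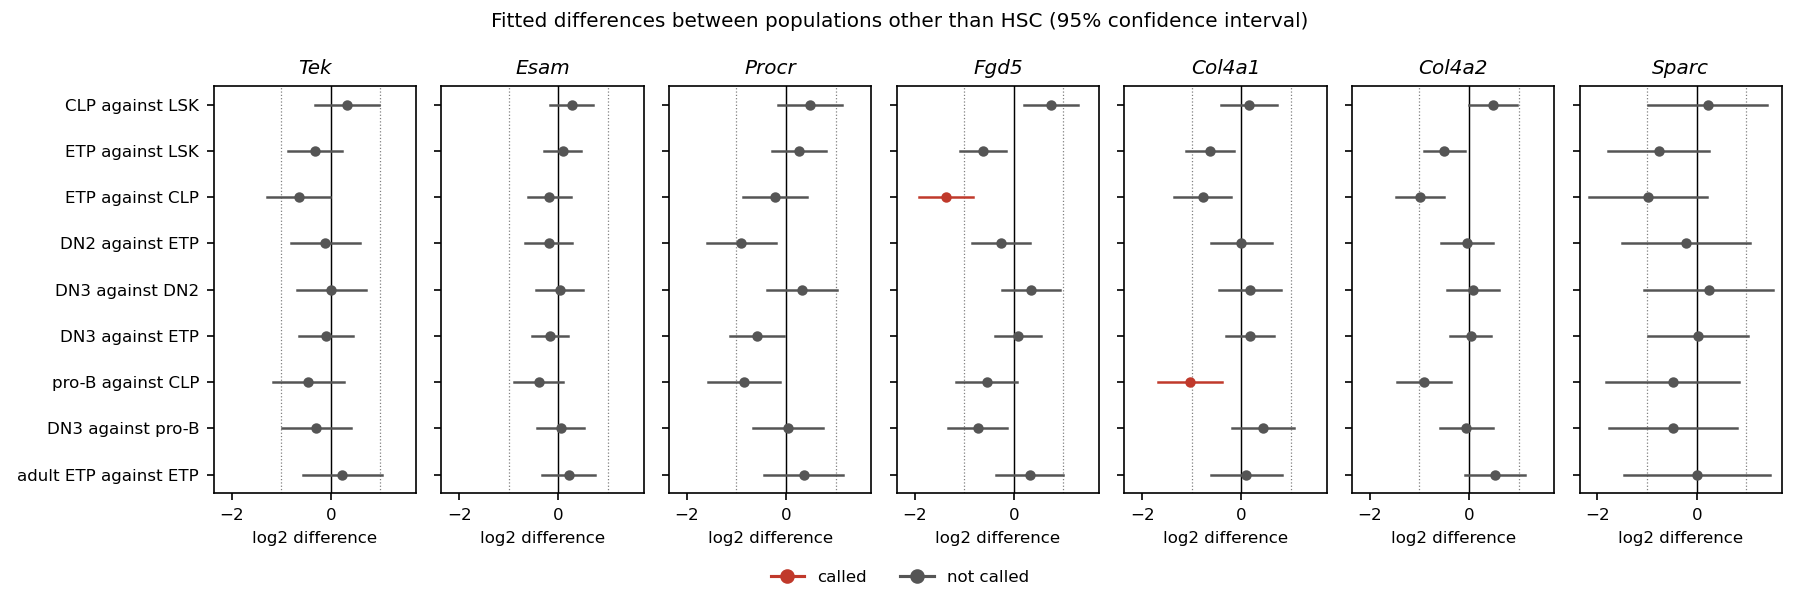
Fitted log2 differences (horizontal axis, points) with 95% confidence intervals (lines) for the 7 genes in the 9 comparisons that leave out HSC, the population named first minus the one named second, with dotted lines at 2-fold. Coloured points mark the 2 called differences, Fgd5 in ETP against CLP at -1.36 and Col4a1 in pro-B against CLP at -1.04.

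CLP replicate 3 was the highest of the 4 CLP arrays for all 7 genes, by a median of 0.67 above the CLP mean. It reached 5.26 for Tek, against 3.50 to 3.74 on the other 3 arrays, and 7.73 for Procr, against 5.61 to 6.04. Its mean over 18 stem cell regulators was 6.94, against 6.56 to 6.75 on the other CLP arrays, and its mean over 25 endothelial genes 5.87, against 5.69 to 5.72. The 5 defining endothelial genes averaged 4.94 to 5.19 over the CLP arrays, near LSK at 4.86 to 4.90. Granulocyte genes ran another way, with means of 8.44, 7.35, 6.69 and 6.01 on CLP replicates 1 to 4. In set 1, LSK replicate 1 was the highest LSK array for 4 of the 7 genes and LSK replicate 3 the lowest for 6 of 7. The part of other cell types in these differences between arrays was not tested.

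Probe sets of the same gene differed in how they showed the pattern. Of the 3 probe sets of Sparc, the one used and the second by mean level were high in HSC of set 2, and the third was flat, between 3.91 and 5.002 on all 36 arrays. The second probe set of Sparc had 7.11, 6.55 and 4.42 in HSC of set 1 and 10.72, 11.47 and 9.55 in HSC of set 2. Its LSK replicate 1 had 6.76, so HSC and LSK overlapped in set 1 there too, and its CLP replicates 1 and 3 had 7.26 and 7.92. The second Col4a1 probe set had 6.52, 6.73 and 5.68 in HSC of set 1 and 8.03, 7.98 and 8.03 in HSC of set 2, above every other array of its set by at least 1.89. The fitted LSK minus HSC difference was -3.83 ± 0.20 for it, against -5.04 ± 0.24 for the probe set used. Tek, Esam, Procr, Fgd5 and Col4a2 had a single probe set each.

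**Figure D4:**
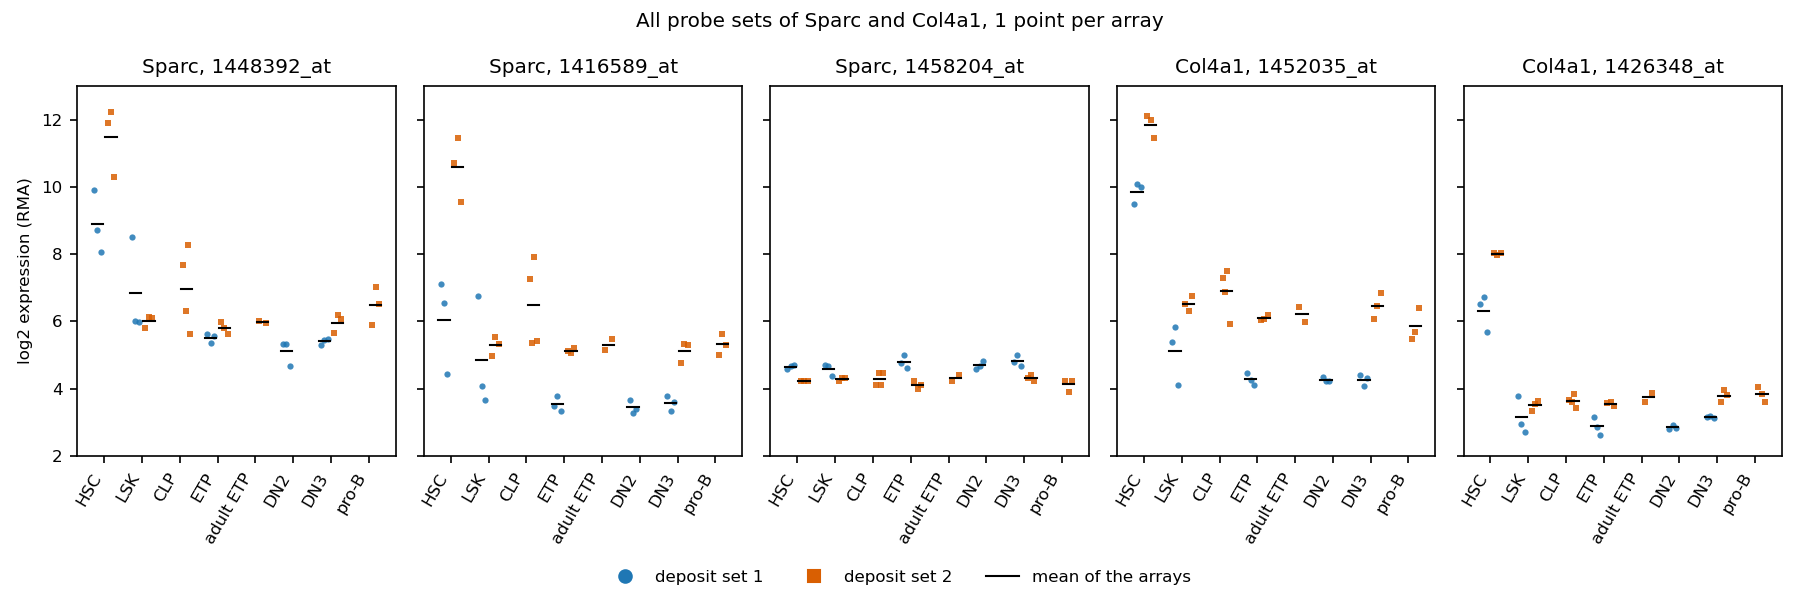
Log2 levels (vertical axis) on all 36 arrays by population (horizontal axis) for the 3 probe sets of Sparc and the 2 of Col4a1, with circles for deposit set 1, squares for set 2 and bars for means. Panels of a gene run in order of mean level, and the third Sparc probe set stays between 3.91 and 5.002 while the others are raised in HSC.

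The genes that work with the 7 were followed through lists of their partners. Of 11 measured genes of angiopoietin and protein C signalling other than Tek and Procr, 5 were called lower in LSK than in HSC and 0 higher, where 4.51% of all genes were called lower. The median difference of the 11 was -0.74, against 0.01 over all genes. These are fits over both sets, and the sets did not always match. Ptprb, also on the endothelial list, had LSK minus HSC of -0.50 in set 1 and -2.14 in set 2, against -3.75 and -3.09 for Tie1. Ptprb passed the test of the difference between sets (limma interaction, adjusted p = 0.0154). The ligand of Tek passed in comparisons where Tek did not. Angpt1, which encodes angiopoietin 1, stood in HSC at means of 9.85 in set 1 and 9.90 in set 2. It averaged 9.12 ± 0.26 in ETP against 7.58 ± 0.14 in LSK in set 1, and 9.12 ± 0.14 against 7.18 ± 0.34 in set 2 (SD, n = 3 each), a rise of 1.74 (adjusted p = 6.64e-07). It was also higher in ETP than in CLP, by 2.29 (adjusted p = 1.87e-07), and fell by 2.89 in DN3 against ETP (adjusted p = 1.33e-12) and by 1.91 in pro-B against CLP (adjusted p = 7.33e-06). Over the same steps Tek differed by -0.32 in ETP against LSK, -0.65 in ETP against CLP, -0.10 in DN3 against ETP and -0.45 in pro-B against CLP, none called. Thrombomodulin (Thbd), which activates protein C, rose by 1.55 in DN2 against ETP (adjusted p = 0.0155) and fell by 2.17 in DN3 against DN2 (adjusted p = 0.00058). Its mean was 7.68 in LSK against 7.07 in HSC in set 1, and 7.33 against 9.10 in set 2.

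Of 36 measured genes of basement membranes and collagen making, 2 were called lower in LSK than in HSC and 0 higher, a share near the 4.51% of all genes called lower, with a median of -0.21. They were Serpinh1, a chaperone of collagen folding, at -2.85, and Nid1, which links laminin to type IV collagen, at -1.59. Serpinh1 was clear of LSK in both sets, at 4.66 ± 1.10 in LSK against 6.54 ± 0.10 in HSC in set 1 and at 3.76 ± 0.32 against 7.58 ± 1.57 in set 2. Nid1 was at 4.67 ± 0.49 in LSK against 4.88 ± 0.81 in HSC in set 1 and at 5.14 ± 0.38 against 8.11 ± 0.69 in set 2. Its HSC and LSK arrays overlapped in set 1 and not in set 2. The other chains of type IV collagen on the list, Col4a3, Col4a4, Col4a5 and Col4a6, were not called in any of the 12 comparisons. Between populations other than HSC, 1 gene of this list at most was called in each direction, among them Agrn, the matrix proteoglycan agrin, at 1.02 in ETP against LSK (adjusted p = 0.000311). Col15a1 rose by 1.21 in DN3 against ETP (adjusted p = 0.000284), and the laminin chain gene Lamc1 rose by 1.67 in pro-B against CLP (adjusted p = 0.00799).

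Of 10 measured junction genes akin to Esam, 2 were called lower in LSK than in HSC and 0 higher, where 4.51% of all genes were called lower, with a median of -0.22. They were the scaffold gene Tjp1 at -2.71 and F11r, which encodes the related adhesion protein JAM-A, at -2.17. Tjp1 also fell by 1.31 in DN2 against ETP (adjusted p = 0.00129), a step at which Esam differed by -0.20. Of the other FGD family genes with Cdc42, 6 in all, 1 was called lower in LSK than in HSC, Fgd3 at -1.09, and the median was -0.09. Of the same family, Fgd4 and Fgd2 were called lower in DN2 against ETP, at -1.26 (adjusted p = 0.00642) and -1.002 (adjusted p = 0.00161), where Fgd5 was at -0.26. In set 1 alone Fgd5 was at -0.008 there. Of 18 measured stem cell regulators, 16 were called lower in LSK than in HSC, where 4.51% of all genes were. They were led by Mecom at -5.02 and Prdm16 at -3.87, and the median of the list was -2.40. The list names genes known from stem cells, Slamf1 of the HSC gate among them, so nothing is read from this count. Vwf and Robo4 are also on the endothelial list. Mecom was also called lower in ETP against CLP, at -1.31 (adjusted p = 0.0374).

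Across arrays the 7 genes tracked one another, which mostly restates that HSC stood apart from the rest. Likeness was measured as the smaller of the Pearson correlations over the 15 arrays of set 1 and the 21 of set 2, with every pair of genes measured on the same arrays. For Tek, Esam, Procr, Fgd5, Col4a1 and Col4a2 it lay between 0.93 and 0.98 for every pair, and Tek and Col4a2 were each other's nearest gene of all 18193, at 0.98. For pairs with Sparc it lay between 0.81 and 0.89. The nearest genes to Tek after Col4a2 were Tie1 and Mamdc2, at 0.98 each, and the nearest to Esam were Mamdc2, Tie1 and Fzd4. Procr was nearest to Myct1, Tek and Mamdc2, and Col4a1 to Mamdc2, Tek and Cadps2. The nearest to Col4a2 were Tek, Myct1 and Mamdc2, and to Fgd5 they were Tek, Mecom and Fhl1. Sparc had other neighbours: the matrix proteoglycan gene Bgn at 0.95, the caveolar gene Cavin2 at 0.94 and the growth factor gene Igf1 at 0.93.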

How the data were processed

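The deposited tables hold log2 RMA values of 45101 probe sets on 36 arrays. RMA is named in the submitters' processing notes, and the authors' log base is not given in the sources used here and was read as log2 from the range of the values. RMA normalizes arrays to one another, so it hides differences in total RNA, and array quantiles differ between the 2 deposit sets. All columns of the tables were mapped to samples and 0 were left out.

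Probe sets annotated to 1 gene were kept (34945; 932 had several genes, 9160 none and 64 were controls), with the probe set of highest mean for each of 18193 genes. A linear model with population and deposit set was fitted over all arrays with limma 3.58.1 in R 4.3.3, with Benjamini-Hochberg adjustment over all genes. A difference was called at an adjusted p under 0.05 and at least 1 on the log2 scale. Tables and figures used Python 3.11.15, numpy 2.4.6, pandas 2.3.3 and matplotlib 3.10.9. The fitting step was tested on simulated data. The alternatives were no set term, each set or both populations alone, other scalings, other probe set rules, a filter on low means, no fold threshold, leaving out each array, and the replicate number as a block. A fit with each probe set as a row of its own was added after seeing the data.

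The 7 genes, the gene lists and the tests were chosen with earlier results of these data known, and the high level in HSC was one of them. Text names the 7 genes throughout, the 2 called genes with the largest difference in each list and comparison, defining markers, and the 3 genes of greatest likeness to each. F11r, Col4a3 to Col4a6, Ppbp, Tubb1, Tie1, Vwf, Robo4, Emcn, Sox18 and Ptprb are named to complete a count or a marker check, chosen after their values were seen. Arrays give no read depth, and their number limits the precision. Same-numbered arrays did not deviate together: over 55 pairs within a set the correlation of deviations ran from -0.19 to 0.21, with a median of -0.01 and 3 over 0.1, so the numbers were not taken to pair arrays.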

Additional observations from a re-analysis of the deposited data

Results flagged for a closer look

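Tek on CLP replicate 3 stood apart within its group. Its log2 level was 5.26, and the distance to the nearest of the other 3 CLP arrays was 0.861 of the range of all 4, above Dixon's critical value for 4 samples at 95%. About 5% of groups pass that value by chance. For Procr the same array had a share of 0.798, under it.

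The difference between LSK and HSC was not the same in both deposit sets for the 5 genes that define endothelial cells. Set 2 minus set 1 was -3.58 for Cdh5, -2.43 for Kdr, -2.09 for Cldn5, -3.15 for Plvap and -2.06 for Stab2, by the limma interaction of population and set. None of the 7 genes passed that test, and Sparc came nearest at -3.39. Since HSC levels chose the 7 genes, nothing is read from that.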

How the results depend on the processing

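Each comparison was refitted under 12 alternatives where they could be fitted, and without each array in turn. All differences of the 7 genes from HSC kept their sign, between -6.83 and -2.07 over 467 such values. The genes were chosen for a high level in HSC, so nothing is read from this. With genes of low mean left out, 4 of the 7 genes remained in the test and 4 were called in each comparison with HSC, and 0 in ETP against CLP, where Fgd5 was not tested. ETP against CLP called 2 with no set term and 2 with no fold threshold, and 1 to 2 when arrays were left out one at a time. Pro-B against CLP called 0 with no set term, 0 in a fit of both populations alone, 0 with the mean of probe sets, 2 with no fold threshold, and 0 to 2 when arrays were left out. In set 1 alone, 1 gene each was called in ETP against LSK (Fgd5), DN2 against ETP (Procr) and DN3 against ETP (Procr), and DN2 against ETP also called 1 in a fit of both populations alone. The test of differences between sets called 1 of the 7 genes, Sparc, with the mean of probe sets (-2.46) and 1 with the most variable probe set (-4.11), and 0 to 1 when arrays were left out. The cause of these changes was not tested, apart from those that follow from fewer genes or no fold threshold.

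With the replicate number as a replicate block, 7 of the 7 genes were called in LSK against HSC and in ETP against HSC. Nothing is read from these counts, since HSC chose the genes. In pro-B against CLP 1 was called (Col4a1 at -1.36), and 0 in the other comparisons that could be blocked. No call of the 7 genes was lost or gained. The block for pro-B against CLP left out CLP replicate 4, whose title holds no number. Leaving out that array without a block also gave -1.36 for Col4a1, so the effect of the block cannot be told apart. No paired analysis was possible because within a set the labels give no shared number to the groups in CLP against HSC, CLP against LSK, ETP against CLP, DN3 against pro-B and adult ETP against ETP.

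Counts over all genes moved by more than 1.5 times chiefly with no fold threshold. They were then 4749 against 1530 in LSK against HSC, 3524 against 1272 in CLP against HSC, 5003 against 1561 in ETP against HSC, 104 against 60 in CLP against LSK, 637 against 303 in ETP against LSK and 502 against 253 in ETP against CLP. They were 934 against 562 in DN2 against ETP, 1114 against 426 in DN3 against DN2, 2922 against 1073 in DN3 against ETP, 3097 against 1064 in pro-B against CLP, 4260 against 1505 in DN3 against pro-B and 80 against 38 in adult ETP against ETP. With low means left out they were 839 in CLP against HSC and 1038 in ETP against HSC. CLP against LSK gave 38 with no set term and 11 in a fit of both populations alone, and DN3 against DN2 gave 276 in such a fit. Adult ETP against ETP gave 14 with no set term, 13 in set 2 alone, 2 in a fit of both populations alone and 6 to 40 when arrays were left out. Groups of 2 to 4 arrays in a set limit the precision of all differences.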
